A study of Mus musculus with 12 samples.

Results

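*Hmgcs1*, *Idi1*, *Fdft1*, *Sqle*, *Lss*, *Dhcr7* and *Insig1* encode 6 enzymes of cholesterol synthesis and 1 regulator of that pathway. These 7 genes, of the 55141 genes counted, were found by symbol, and were chosen by way of a list drawn up with their expression in these libraries and its differences between the groups already known. Which of the comparisons had led to the list was not given, so levels and differences of the 7 genes are a description: calls from fits across all genes and intervals are given for them, no p-value is, and nothing rests on those calls. Genes of cholesterol uptake were followed as a separate list, since none of the 7 encodes an uptake receptor.

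Transcripts were measured by bulk RNA-seq in gastruloids, aggregates of mouse embryonic stem cells (the 129/svev line) that form germ layers and a body axis in culture. All gastruloids received a pulse of the Wnt agonist CHIR99021, were embedded in a dextran hydrogel, were collected 120 h after seeding and were released with dextranase before RNA extraction. The 4 groups differed in the time of embedding (72 h or 96 h after seeding) and in the gel concentration (1.0 mM, or the stiffer 1.5 mM), with 3 libraries each. Each library was made from a pool of gastruloids, all from a single cell line, and gastruloids without a gel are not analysed here. Collection at a fixed age meant that gastruloids embedded at 72 h had spent 48 h in the gel and those embedded at 96 h 24 h, so the age at embedding and the time spent in the gel cannot be told apart.

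Cholesterol is made from acetyl-CoA through mevalonate, the isoprenoid units, squalene and lanosterol. The transcription factor SREBP2 switches on most genes of the route when sterol falls in the membrane of the endoplasmic reticulum. INSIG proteins hold SREBP2 and its escort SCAP in the endoplasmic reticulum when sterol is plentiful, and *Insig1* is itself a target of SREBP2. In the vertebrate embryo, cholesterol is a component of membranes and is attached to Hedgehog ligands, and loss of DHCR7 function causes a malformation syndrome in humans.

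Total counts ran from 23011791 to 27609422 per library, between 23011791 and 25149780 at 72 h and between 25398824 and 27609422 at 96 h. Across the 12 libraries a single rRNA gene took 0.207% to 6.12% of the counts, and mitochondrial transcripts took 1.68% to 2.60% at 72 h and 2.37% to 3.02% at 96 h. Their part in the results was not tested. Levels within a gene are given as CPM, the read count relative to the size of the library, which was scaled by TMM over the 12 libraries. *Idi1* had the fewest reads of the 7 genes, with 156 to 570 counts per library, against 1560 to 2942 for *Lss* and 9695 to 19293 for *Hmgcs1*.

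In mm10 (annotation of GENCODE M21), *Hmgcs1* lies at chr13:119690379-119708260 and *Idi1* at chr13:8885501-8892451, both on the plus strand. *Sqle* lies at chr15:59315077-59331192, *Lss* at chr10:76531588-76557138, *Dhcr7* at chr7:143823145-143848410 and *Insig1* at chr5:28071363-28078662, all on the plus strand, and *Fdft1* at chr14:63145150-63179578 on the minus strand. Their Ensembl identifiers are ENSMUSG00000093930 for *Hmgcs1*, ENSMUSG00000058258 for *Idi1*, ENSMUSG00000021273 for *Fdft1*, ENSMUSG00000022351 for *Sqle*, ENSMUSG00000033105 for *Lss*, ENSMUSG00000058454 for *Dhcr7* and ENSMUSG00000045294 for *Insig1*. Genes on the opposite strand overlap *Hmgcs1*, *Idi1*, *Lss* and *Fdft1*. The strand setting of the counts is not stated, so reads of such a pair may not be told apart. For *Fdft1* the partner is *Ctsb*, a lysosomal protease gene that shares 774 bases with it and ran between 91.4 and 115 CPM. *Ctsb* differed between embedding times by a log2 fold change of 0.10 in 1.0 mM gels (edgeR, adjusted p = 0.57) and of 0.11 in 1.5 mM gels (edgeR, adjusted p = 0.29).

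Promoters from the RefSeq table, of build GRCm38.p6, were found for 5 of the 7 genes (*Hmgcs1*, *Idi1*, *Lss*, *Dhcr7* and *Insig1*), each as 250 bases before and 50 bases after a transcription start. They were searched on both strands for the sterol element TCACNCCAC, the CCAAT box CCAAT and the GC box GGGCGG, letters bound by SREBP, NF-Y and Sp1, respectively. *Hmgcs1* was the only one of the 5 with the sterol element in this window, which 1.24% of all 32851 promoters hold, at a position that begins 137 bases before its start. The 5 genes had 7 promoters, since *Dhcr7* had 3, and 5 of the 7 held the CCAAT box and 6 the GC box, against 37.4% and 35.7% of all promoters. The 2 promoters without a CCAAT box, and the 1 without a GC box, were those of *Dhcr7*. For the 15 other synthesis enzymes 13 promoters were in the table, of which 11 held a CCAAT box, 11 a GC box and none the sterol element. The part upstream of the gene is shown for *Hmgcs1*, the gene of the highest level, for *Lss*, and for the regulator *Insig1*, with matches to the 3 motifs on either strand in capitals. They are chr13:119690101-119690350, chr10:76531355-76531587 and chr5:28071162-28071362, all on the plus strand and written 5′ to 3′. A match is a description of these letters and not evidence of binding.
Hmgcs1: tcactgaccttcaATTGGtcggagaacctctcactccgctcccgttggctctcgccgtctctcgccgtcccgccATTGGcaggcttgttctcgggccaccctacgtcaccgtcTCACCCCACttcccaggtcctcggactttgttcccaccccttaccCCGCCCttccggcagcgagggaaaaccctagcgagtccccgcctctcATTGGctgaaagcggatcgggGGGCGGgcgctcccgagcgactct
Lss: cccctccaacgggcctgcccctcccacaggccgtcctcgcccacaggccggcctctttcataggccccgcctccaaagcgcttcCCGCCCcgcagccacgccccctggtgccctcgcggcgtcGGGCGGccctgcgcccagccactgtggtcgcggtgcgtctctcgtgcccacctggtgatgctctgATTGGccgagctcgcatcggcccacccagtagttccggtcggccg
Insig1: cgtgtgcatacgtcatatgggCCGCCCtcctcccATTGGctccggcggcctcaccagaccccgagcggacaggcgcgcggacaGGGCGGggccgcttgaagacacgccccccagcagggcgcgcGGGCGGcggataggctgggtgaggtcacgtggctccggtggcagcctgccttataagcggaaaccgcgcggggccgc

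Compared per length, with the FPKM values of the authors, the 7 genes kept a single order in all 4 groups. In 1.0 mM gels at 72 h the means were 169 FPKM ± 21.3 (SD, n = 3) for *Hmgcs1*, followed by 53.2 ± 4.17 for *Sqle* and 42.5 ± 4.07 for *Insig1*. *Dhcr7* with 31.3 FPKM ± 0.913 and *Fdft1* with 29.1 ± 2.40 (SD, n = 3) were neighbours whose libraries overlapped in that group and in both groups of the 1.5 mM gels. *Lss* had 17.2 FPKM ± 2.705 and *Idi1* 8.35 ± 2.13 (SD, n = 3). The only other neighbours that overlapped were *Sqle* and *Insig1* in 1.5 mM gels at 96 h, with means of 35.5 FPKM ± 4.77 and 30.3 ± 5.52 (SD, n = 3). *Hmgcs1* therefore stood apart from the other 6 genes in each group, and *Idi1* lay below them.

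*Hmgcs1* encodes cytosolic HMG-CoA synthase, an enzyme early in the mevalonate arm. In 1.0 mM gels its level was 817, 668 and 724 CPM at 72 h and 539.6, 469 and 522 CPM at 96 h. In the stiffer gel it was 832, 697 and 722 CPM at 72 h and 561, 430.0 and 377 CPM at 96 h. All 6 libraries embedded at 72 h lay above all 6 embedded at 96 h. The share of all genes that separate this way over both gels was not counted. Nothing is therefore read from such a separation, for this gene or for those below. Its log2 fold change, 72 h over 96 h, was 0.53 ± 0.10 (SE, 3 against 3 libraries) in 1.0 mM gels and 0.71 ± 0.13 in 1.5 mM gels, that is 1.45-fold and 1.64-fold.

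*Idi1* encodes isopentenyl-diphosphate isomerase, which turns one 5-carbon isoprenoid unit into its isomer. Its level in 1.0 mM gels was 24.1, 16.0 and 20.6 CPM at 72 h and 14.5, 10.5 and 12.5 CPM at 96 h. The stiffer gel gave 21.4, 16.7 and 20.9 CPM at 72 h and 12.5, 6.26 and 6.50 CPM at 96 h. The lowest values of the series for this gene were thus replicates 2 and 3 of the 1.5 mM gels at 96 h, and the embedding times did not overlap, with at most 14.5 CPM at 96 h and at least 16.0 CPM at 72 h. *Idi1* had the largest difference of the 7 genes, with a log2 fold change of 0.70 ± 0.17 (SE) in 1.0 mM gels and 1.21 ± 0.25 in 1.5 mM gels, or 1.63-fold and 2.32-fold. The paralogue *Idi2* was listed at 0 FPKM in every library.

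*Fdft1* encodes squalene synthase, which commits farnesyl diphosphate to the sterol branch. The libraries of the 1.0 mM gels had 127, 114 and 113 CPM at 72 h and 95.7, 96.1 and 90.4 CPM at 96 h. Those of the 1.5 mM gels had 124, 113 and 107 CPM at 72 h and 103, 90.6 and 80.2 CPM at 96 h. The 2 embedding times lay apart by a small margin, from 103 CPM at most at 96 h to 107 CPM at least at 72 h. Log2 fold changes were 0.33 ± 0.08 (SE) in 1.0 mM gels and 0.32 ± 0.10 in 1.5 mM gels.

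*Sqle* encodes squalene epoxidase, the first oxygen-dependent step of the sterol branch. Its libraries in 1.0 mM gels had 188, 181 and 206 CPM at 72 h and 149, 148 and 142 CPM at 96 h. In the stiffer gel they had 185, 176 and 179 CPM at 72 h and 149, 125 and 119.6 CPM at 96 h. The embedding times did not overlap, with 149 CPM as the highest value at 96 h and 176 CPM as the lowest at 72 h, a gap smaller than the range of the 1.5 mM gels at 96 h. Log2 fold changes were 0.40 ± 0.08 (SE) and 0.45 ± 0.08, respectively, in the softer and the stiffer gel.

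*Lss* encodes lanosterol synthase, which closes the sterol rings. Its level in 1.0 mM gels was 125, 96.7 and 102.5 CPM at 72 h and 79.1, 69.8 and 74.3 CPM at 96 h. The values in the stiffer gel were 105, 99.0 and 105 CPM at 72 h and 74.2, 65.8 and 60.7 CPM at 96 h. No library embedded at 96 h exceeded 79.1 CPM and none embedded at 72 h fell below 96.7 CPM. The log2 fold change was 0.54 ± 0.10 (SE) in 1.0 mM gels and 0.62 ± 0.08 in 1.5 mM gels.

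*Dhcr7* encodes 7-dehydrocholesterol reductase, the last enzyme of one route to cholesterol. Libraries in 1.0 mM gels had 107, 103 and 106 CPM at 72 h and 91.7, 84.0 and 86.5 CPM at 96 h. Libraries in 1.5 mM gels had 113, 92.9 and 89.6 CPM at 72 h and 83.4, 74.8 and 68.8 CPM at 96 h. Within each gel the embedding times lay apart, but replicate 1 of the 1.0 mM gels at 96 h (91.7 CPM) lay above replicate 3 of the stiffer gel at 72 h (89.6 CPM). *Dhcr7* had the smallest difference of the 7 genes in 1.0 mM gels, with a log2 fold change of 0.28 ± 0.07 (SE), and 0.37 ± 0.10 in 1.5 mM gels.

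*Insig1*, the regulator, had 166, 140.0 and 149.7 CPM at 72 h and 134, 115 and 122 CPM at 96 h in 1.0 mM gels. The stiffer gel gave 164, 134 and 135 CPM at 72 h and 133, 107 and 92.4 CPM at 96 h. The embedding times came close but did not overlap, with 133.7 CPM at most at 96 h and 134.1 CPM at least at 72 h. Log2 fold changes were 0.31 ± 0.09 (SE) in 1.0 mM gels and 0.37 ± 0.13 in 1.5 mM gels.

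**Figure D1:**
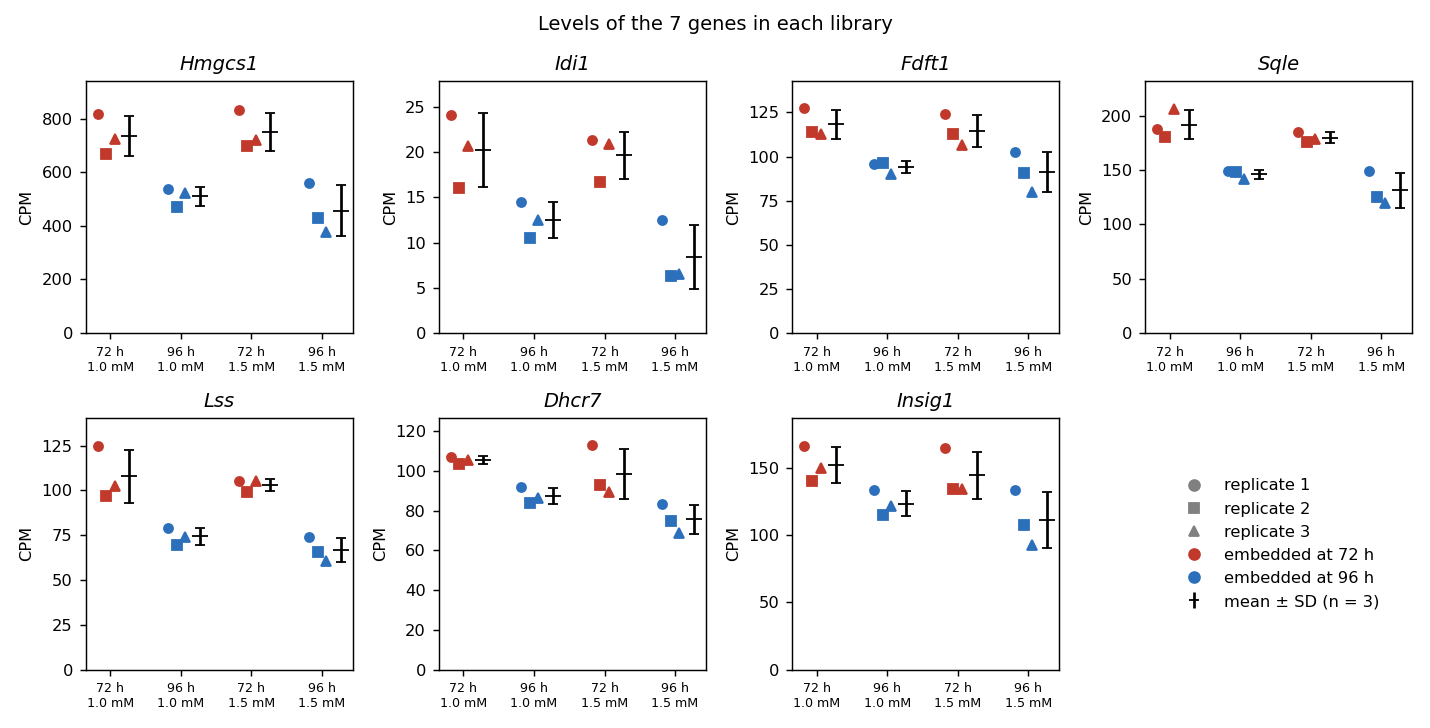
Level of each of the 7 genes in the 12 libraries (y axis, CPM from 0) by embedding time and gel concentration (x axis), with symbols for replicates and the mean ± SD of 3 libraries beside them. For *Idi1* the libraries embedded at 96 h reach 14.5 CPM at most and those embedded at 72 h start at 16.0 CPM.

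The differences between embedding times were called by edgeR's quasi-likelihood test across all genes, where p, adjusted after Benjamini and Hochberg, was below 0.05, with no threshold on the fold. In 1.0 mM gels 6 of the 7 genes were called higher at 72 h, all but *Insig1*, where 5.97% of the 15763 genes tested were called higher and 3.27% lower. The same 6 of 7 were called higher in the stiffer gel, where 10.4% of the 15683 genes tested were called higher and 8.98% lower. Blocking on replicate number added *Insig1* in each gel, beside 8.44% of all genes called higher in the softer and 13.1% in the stiffer gel. DESeq2 also added it, beside 1072 of 15763 genes called higher in the softer and 1744 of 15683 in the stiffer gel. The fit with no filter on low counts did so too, beside 1453 of 29070 and 1991 of 28917 genes, respectively. With both gels in a single fit all 7 were called higher, beside 16.2% of the 16388 genes tested called higher and 14.8% lower. All 7 genes had groups that did not overlap in each gel, which held in the direction of 72 h for 14.6% of all genes tested in the softer gel and 20.0% in the stiffer one. Because the list was drawn up with these results known, nothing about the 7 genes is read from these counts. The study adds a threshold, an absolute log2 fold change above 1, to calls made with DESeq2. Added to the edgeR calls here, it left none of the 7 in 1.0 mM gels, beside 2.61% of all genes called higher. Only *Idi1* was left in 1.5 mM gels, beside 1.61%. The study's own calls were not used. The median log2 fold change of the 7 genes was 0.40 in 1.0 mM gels and 0.45 in 1.5 mM gels, and that of all genes tested was -0.01 in both.

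Single libraries decided some of these calls. In 1.0 mM gels *Hmgcs1* and *Lss* were called with any library left out, *Sqle* in 5 of 6 such fits, *Idi1* and *Fdft1* in 2 and *Dhcr7* in 1. The count of genes called there was 2 without replicate 3 at 96 h and 3 without replicate 1 at 72 h or replicate 2 at 96 h. Of all genes tested in these fits, 442 of 16099, 687 of 16137 and 471 of 16166, respectively, were called higher. In the stiffer gel *Hmgcs1*, *Idi1*, *Sqle* and *Lss* were called in all 6 such fits, *Dhcr7* in 3 and *Fdft1* in 1. Those fits called between 640 of 16014 and 2175 of 16064 genes higher. Over both gels, all 7 genes were called in each of the 12 fits that left out a library. Between 2118 of 16714 and 2924 of 16723 genes tested were called higher in those fits. The log2 fold changes of the 7 genes over both gels then ran from 0.26 for *Dhcr7* to 1.08 for *Idi1*.

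Libraries differed within groups in a way that the 7 genes shared. Replicate 1 was the highest of its group in 25 of 28 combinations of gene and group, the lowest in none, and the highest for all 7 genes in 1.5 mM gels at 96 h. The share of all genes with replicate 1 highest was not counted, so the pattern is not read as particular to the 7. On the log2 scale, the mean of the 7 genes relative to each gene's own mean was 0.41 in replicate 1 of the softer gel at 72 h, against 0.16 and 0.28 in replicates 2 and 3. For the 1.5 mM gels at 96 h it was -0.10 in replicate 1, against -0.45 and -0.56 in replicates 2 and 3. The range over the 6 libraries embedded at 72 h was thus 0.14 to 0.41 and that over the 6 embedded at 96 h -0.56 to -0.06. With replicate 1 of every group left out, a choice made after the values were seen, 2 of the 7 genes (*Hmgcs1* and *Lss*) were called in 1.0 mM gels, beside 3.30% of all genes called higher. In those fits all 7 were called in 1.5 mM gels, beside 15.9% of all genes, and all 7 over both gels, beside 9.99%.

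**Figure D2:**
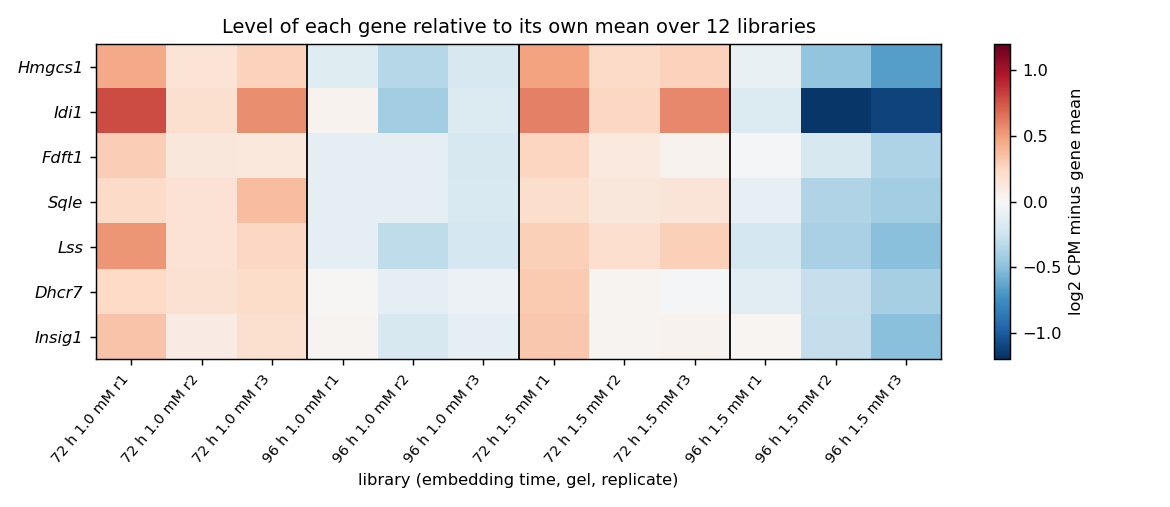
Log2 CPM of each of the 7 genes minus the gene's mean over the 12 libraries (color; red above, blue below), with 1 column per library and black lines between groups. Columns of libraries embedded at 72 h are red for nearly all genes, and the deepest blue is *Idi1* in replicates 2 and 3 of the 1.5 mM gels at 96 h (-1.16 and -1.11).

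The 7 genes were also compared between gel concentrations at a fixed embedding time. At the earlier embedding time none of the 7 was called, as was none of the 15563 genes tested (0%), although 1074 genes had an unadjusted p below 0.05 in edgeR's test and DESeq2 called 12. The log2 fold changes of 1.5 mM over 1.0 mM ran from -0.10 for *Dhcr7* to 0.03 for *Hmgcs1*, and 6 of 7 were below 0. Their 95% intervals all included 0, with that of *Hmgcs1* from -0.21 to 0.26 and that of *Idi1* from -0.40 to 0.32. The interval of *Sqle*, the narrowest, ran from -0.27 to 0.08.

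At 96 h all 7 genes had a log2 fold change of 1.5 mM over 1.0 mM below 0, with a median of -0.15. Again edgeR called none of the 7 and none of the 15861 genes tested (0%), while 1578 had an unadjusted p below 0.05 and DESeq2 called 96. *Idi1* had the largest difference, -0.57 with a 95% interval from -1.07 to -0.06, and *Dhcr7* had -0.21 with an interval from -0.37 to -0.04. For *Dhcr7* the libraries of the 1.5 mM gels (68.8 to 83.4 CPM) lay below those of the 1.0 mM gels (84.0 to 91.7 CPM), whereas for the other 6 genes the gels overlapped. The share of all genes whose gels lay apart was not counted, so nothing is read from this separation. *Hmgcs1* differed by -0.16 with an interval from -0.42 to 0.10, and *Fdft1*, with the smallest difference, by -0.05 with an interval from -0.22 to 0.13. *Idi1* was called between gels at 96 h in 2 alternatives, once when replicate numbers entered as a block and once with no filter on low counts. Those fits called 289 of 15861 and 333 of 29248 genes, respectively.

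Over both embedding times, edgeR called 0.0305% of the 16388 genes for gel concentration (5 genes) and none of the 7. The largest of the 7 differences was that of *Idi1*, -0.29 with a 95% interval from -0.66 to 0.07. The difference between gels in the effect of embedding time was called for none of the 7 genes and for none of all genes (0%). DESeq2 called it for 2 genes. Of the 16388 genes tested, 708 had an unadjusted p below 0.05 in edgeR's test, fewer than no effect at all would give. *Idi1* had the largest difference between gels in this effect, 0.52 on the log2 scale with an interval from -0.17 to 1.22. The other 6 genes lay between -0.0006 for *Fdft1* and 0.19 for *Hmgcs1*. The interval of *Hmgcs1* reached 0.57.

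**Figure D3:**
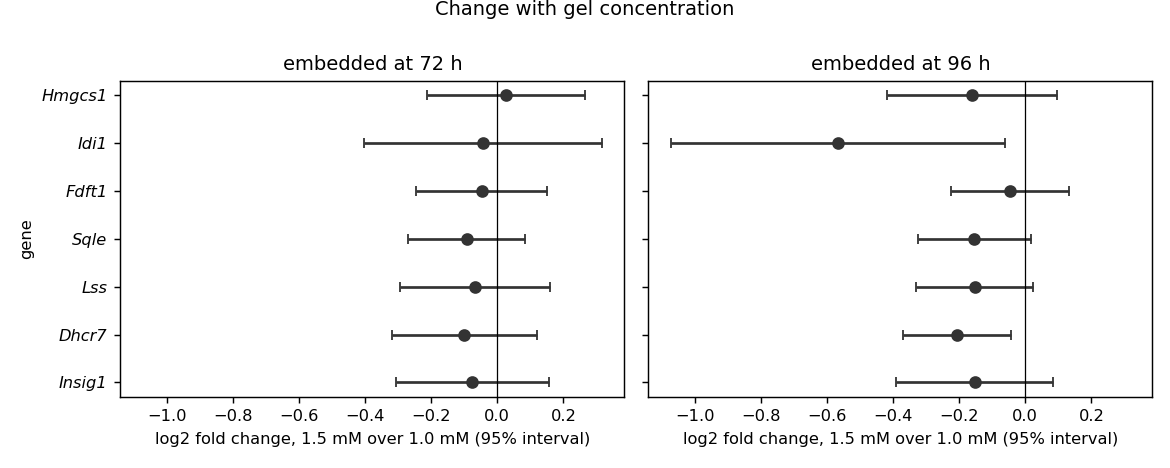
Log2 fold change of 1.5 mM over 1.0 mM gels for the 7 genes (points) with its 95% interval (bars), for gastruloids embedded at 72 h (left) and 96 h (right). At 96 h all 7 points lie below 0, and the intervals of *Idi1* and *Dhcr7* exclude it without adjustment for the number of genes tested.

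The other 15 enzymes from acetyl-CoA to cholesterol were listed from knowledge of the pathway. This list and the gene lists below were drawn up with earlier results of these data known. All 15 had a log2 fold change above 0 in each gel, with medians of 0.31 in 1.0 mM and 0.30 in 1.5 mM gels. In the softer gel edgeR called 7 of 15 higher at 72 h and in the stiffer gel 9 of 15, and none lower. Of all genes tested, 5.97% and 10.4%, respectively, were called higher. Over both gels 11 of 15 were higher, beside 16.2% of all genes, and *Mvk*, *Tm7sf2*, *Lbr* and *Ebp* were not called.

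Next to *Idi1* in the pathway, *Fdps*, which joins isoprenoid units to farnesyl diphosphate, was higher at 72 h by a log2 fold change of 0.49 in 1.0 mM gels (edgeR, adjusted p = 0.0040) and of 0.51 in 1.5 mM gels (edgeR, adjusted p = 0.012). *Cyp51*, the lanosterol demethylase, was higher by 0.43 and 0.52 (edgeR, adjusted p = 0.0040 and 0.0028). *Fdps*, *Cyp51* and the methylsterol oxidase gene *Msmo1* kept the call in 1.0 mM gels with any library left out, and *Cyp51* also in 1.5 mM gels. The count of the 15 enzymes called fell from 9 to 2 in the stiffer gel without replicate 2 or replicate 3 at 96 h. In the softer gel it fell from 7 to 3 without replicate 3 at 96 h and to 4 without replicate 1 or replicate 2 at 96 h.

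Some enzymes showed little difference. *Mvk*, mevalonate kinase, differed by 0.13 ± 0.10 (SE) in 1.0 mM and 0.04 ± 0.11 in 1.5 mM gels (edgeR, adjusted p = 0.47 and 0.85). *Ebp*, the sterol isomerase, differed by 0.06 ± 0.11 and 0.01 ± 0.09 (edgeR, adjusted p = 0.81 and 0.97). Of the enzymes that reduce the sterol nucleus after *Cyp51*, *Lbr* differed by 0.13 in 1.0 mM and 0.14 in 1.5 mM gels, and *Tm7sf2* by 0.21 and 0.07, and neither passed the test.

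**Figure D4:**
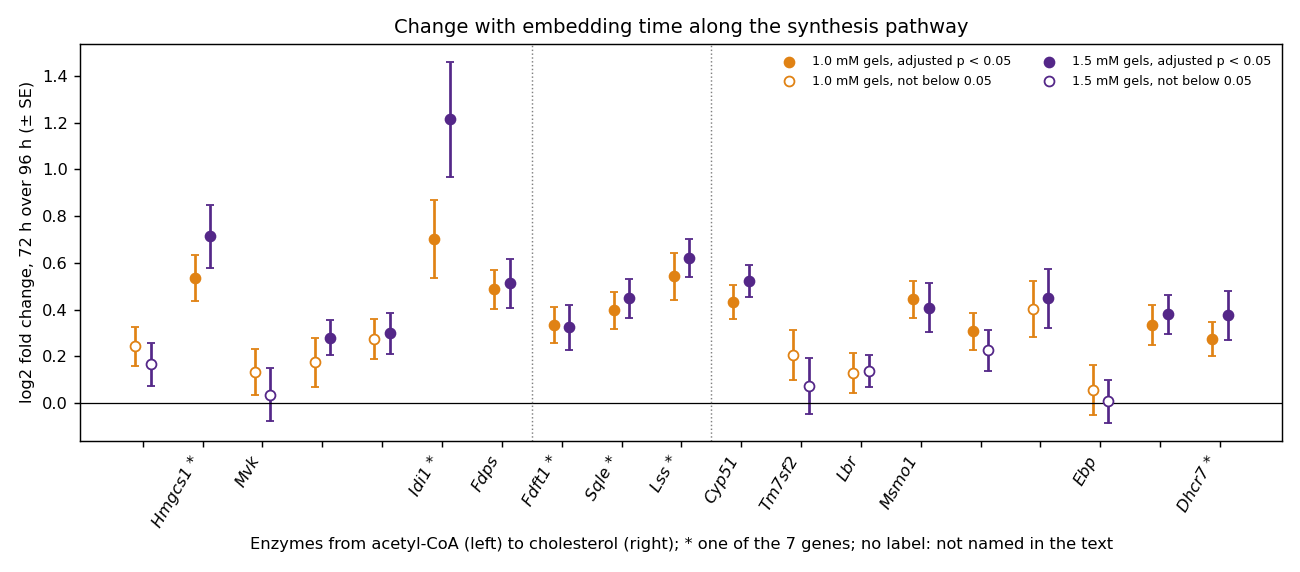
Log2 fold change of 72 h over 96 h ± SE (y axis) for synthesis enzymes in pathway order (x axis; enzymes without a label are not named in the text; dotted lines separate the mevalonate arm, the squalene and lanosterol steps and the later steps), in 1.0 mM gels (orange) and 1.5 mM gels (purple). All points lie above 0, with *Idi1* in 1.5 mM gels highest at 1.21 and *Ebp* in 1.5 mM gels lowest at 0.01.

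Between gels, all 15 enzymes had a log2 fold change of 1.5 mM over 1.0 mM below 0 at 96 h, with a median of -0.13, and 13 of 15 were below 0 at 72 h, with a median of -0.15. None was called at either embedding time by edgeR, and DESeq2 called 1 of 15 at 96 h.

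Among 10 genes that regulate SREBP, *Srebf2*, which encodes SREBP2 itself, was the only one called in 1.0 mM gels, and 3 were called in 1.5 mM gels (*Srebf2*, *Mbtps2* and *Rnf139*). Of all genes tested, 5.97% were called higher in 1.0 mM gels and 10.4% in 1.5 mM gels. *Srebf2* had 444, 351 and 420.5 CPM at 72 h and 313, 290.4 and 290.3 CPM at 96 h in 1.0 mM gels. Its log2 fold change was 0.45 ± 0.10 (SE) in 1.0 mM gels (edgeR, adjusted p = 0.015) and 0.48 ± 0.07 in 1.5 mM gels (edgeR, adjusted p = 0.0042). The call in 1.0 mM gels was lost without replicate 2 or replicate 3 at 96 h, and that in 1.5 mM gels was kept with any library left out. The count of 3 fell to 1 without replicate 3 at 72 h, replicate 2 at 96 h or replicate 3 at 96 h, with *Mbtps2* lost in 3 of 6 such fits and *Rnf139* in 5. *Scap*, the escort held by INSIG1, differed by -0.09 and -0.08, and *Insig2*, the relative of *Insig1*, by 0.21 and 0.09, and neither passed the test. Over both gels 5 of 10 were called higher, beside 16.2% of all genes, and 3 without replicate 3 of the 1.5 mM gels at 96 h. The list's median was 0.16, beside -0.01 for all genes.

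Of 10 genes of cholesterol uptake and transport, 4 were higher at 72 h in 1.0 mM gels, 5 in 1.5 mM gels and 6 over both, and none was lower. The shares of all genes called higher were 5.97%, 10.4% and 16.2%, respectively. *Scarb1*, the HDL receptor, rose by 0.53 ± 0.11 (SE) on the log2 scale in 1.0 mM gels and by 0.58 ± 0.11 in 1.5 mM gels (edgeR, adjusted p = 0.010 and 0.0085). *Npc1*, which exports cholesterol from lysosomes, rose by 0.46 and 0.31 (edgeR, adjusted p = 0.016 and 0.039). The 6 genes called over both gels included *Scarb1*, *Lipa*, *Npc1* and *Stard4*, and all 6 were called whichever library was left out. Within a gel only 1 call withstood every such fit, that of *Lipa*, lysosomal acid lipase, in 1.0 mM gels and that of *Scarb1* in 1.5 mM gels. The list's median over both gels was 0.38.

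Genes of other lipid routes were mixed, where over both gels 16.2% of all genes were called higher and 14.8% lower. Of 11 genes of fatty acid synthesis, 9 were higher at 72 h over both gels and none was lower, with *Scd1*, a stearoyl-CoA desaturase, at a log2 fold change of 0.70 in 1.0 mM gels (edgeR, adjusted p = 0.0014) and 0.82 in 1.5 mM gels (edgeR, adjusted p = 0.0043). *Fasn*, fatty acid synthase, differed by 0.14 and 0.18 and was not called in either gel, and its call over both gels was lost in 7 of 12 fits with a library left out. Of the 9 calls over both gels, 6 withstood every such fit. Of 8 tested genes of cholesterol efflux and storage, *Soat1* and *Apoe* were higher over both gels and *Nr1h2* and *Cyp27a1* lower. *Apoe* rose by 0.88 ± 0.12 (SE) in 1.0 mM gels (edgeR, adjusted p = 0.0017) and by 0.45 ± 0.12 in 1.5 mM gels (edgeR, adjusted p = 0.031). In the side branches of the mevalonate pathway, which lead to ubiquinone, dolichol and protein prenylation, none of 8 genes was higher and *Coq2* was lower over both gels, by a log2 fold change of -0.32 ± 0.06 (edgeR, adjusted p = 0.0013). The median of the side branches was -0.04 over both gels, beside 0.29 for the 15 synthesis enzymes and -0.01 for all genes.

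**Figure D5:**
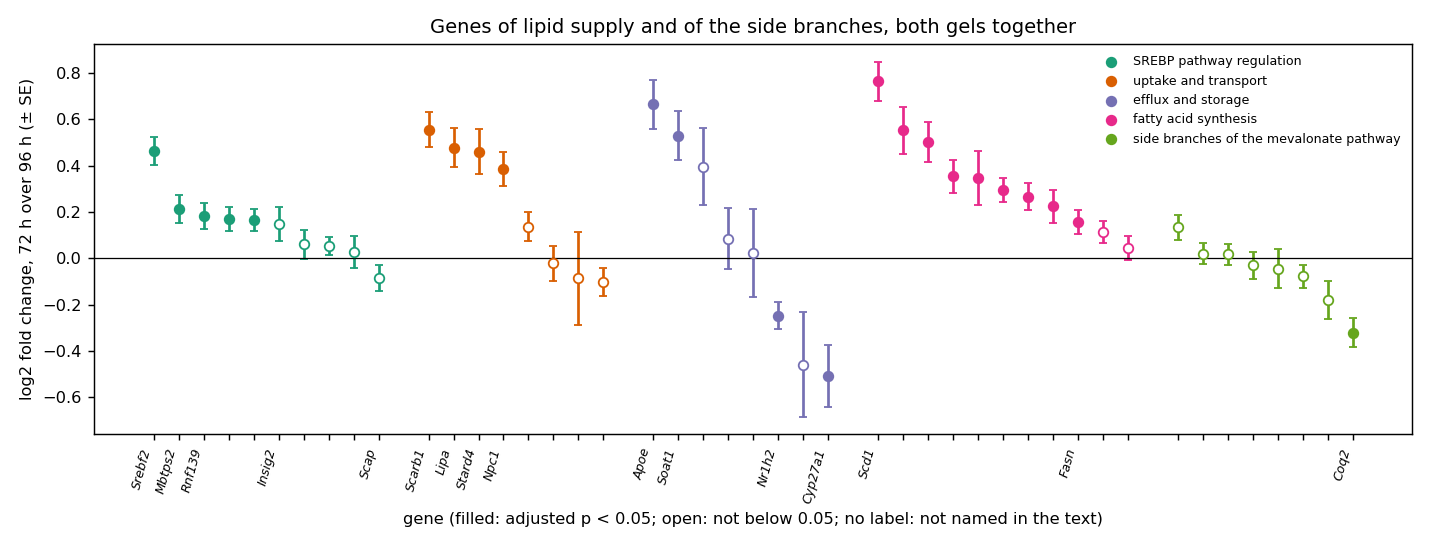
Log2 fold change of 72 h over 96 h ± SE (y axis) over both gels for tested genes of 5 lists (colors), ordered by value within each list, with labels for genes named in the text; filled points were called by edgeR. Genes not reported here are left out of the figure. Among the genes shown, *Scd1* (0.76) and *Apoe* (0.66) are highest, and the side branches lie around 0 with *Coq2* at -0.32.

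Markers of cell types also moved with embedding time, where over both gels 16.2% of all genes were called higher at 72 h and 14.8% lower. The summed level of 7 cardiac and anterior mesoderm markers was 322 to 704 CPM in libraries embedded at 72 h and 58.4 to 227 CPM at 96 h, and all 7 markers were called higher over both gels. The sum of 8 presomitic and somitic markers was 106 to 239.6 CPM at 72 h and 377 to 611 CPM at 96 h, and 6 of 7 tested were called lower over both gels. For 8 pluripotent and germ-cell-like markers the sum was 92.9 to 123 and 124 to 181 CPM, of which 1 marker called higher at 72 h held 60.95 to 96.3 CPM at 72 h, while the other 7 were called lower and the median log2 fold change was -1.68. The 6 posterior and neuromesodermal markers summed to 226 to 341 CPM at 72 h and 120.3 to 207 CPM at 96 h. A single one of them held 179.8 to 289 CPM at 72 h and was the 1 called higher, 2 were called lower, and the median was -0.30. The 6 neural tube markers summed to 100.3 to 132 and 64.5 to 91.3 CPM, with 79.3 to 109 CPM at 72 h from a single marker, and 3 were called higher and 2 lower. Sums of endoderm markers (322 to 494 and 355 to 508 CPM) and of endothelium and blood markers (226 to 351 and 211 to 291 CPM) overlapped between embedding times. In every list but those of endoderm, where *Afp* was at 0 in all libraries, of neural tube, where *Neurog2* was at 0 in the softer gel at 72 h, and of blood, where *Hbb-bh1* was at 0 at 72 h, each marker had reads in every group. The part of these markers' cell types in the levels of the cholesterol genes was not tested, and in bulk libraries fewer cells of a type and less RNA per cell cannot be told apart.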

How the data were processed

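Bulk RNA-seq was analysed for gastruloids in 4 groups of 3 replicates. The authors selected poly-A RNA, trimmed reads with cutadapt 4.4, aligned them to mm10 with STAR 2.7.10b and deposited raw read counts per Ensembl gene. The methods name STAR and the deposited table HTSeq as the source of the counts, and the strand setting is not stated. The authors computed FPKM with Cufflinks 2.2.1.3 and deposited those values, used here for levels between genes and as an alternative, log2(FPKM + 1). The authors' deposited comparisons (DESeq2 log2 fold changes, adjusted p-values and calls) were not used.

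Counts were analysed with R 4.3.3 and edgeR 4.0.16. All 36 mitochondrial genes were left out, as in the study's methods. TMM scaled the libraries, filterByExpr (minimum count 10, minimum total 15) removed genes of low count, and the quasi-likelihood functions glmQLFit and glmQLFTest were run on the libraries of each pair of groups, or on all 12 for effects over both gels, over both embedding times and for their interaction. A gene was called where its p, adjusted over all genes tested after Benjamini and Hochberg, was below 0.05. Fits were tested on simulated counts. Log2 CPM had a prior count of 2. Total counts of 23011791 to 27609422 leave the spread between replicates as the limit of precision, and p-values measure only that spread.

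The 7 genes, the 6 other gene lists and the 7 marker lists were chosen with earlier results of these data known, and the lists come from general knowledge of the pathway. Genes named are the 7, any gene of the 6 lists, the 8 genes whose log2 CPM was most like the mean of the 7 over 12 libraries (mean of at least 100 counts) and the 4 most like it within groups. *Ctsb* and *Idi2* were added for their position or sequence. Some genes that this rule would name are not reported here, but remain in the counts and medians of their lists. Alternatives were DESeq2 1.42.0, limma-voom (limma 3.58.1), RLE normalization, no low-count filter, at least 1 CPM in 3 libraries, a replicate block, a log2 fold change threshold of 1, all 12 libraries in a single fit, FPKM, each library left out and, added after the data were seen, replicate 1 of every group left out.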

Additional observations from a re-analysis of the deposited data

How the results depend on the processing

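The log2 fold changes of the 7 genes between embedding times kept their direction under every alternative tried. Of 210 values, 172 counted as the same, 28 lost the threshold, 10 gained it and 0 reversed. Values from FPKM were not tested, so they have no side of the threshold. They counted as the same where they differed from the main value by less than the gene's SD within groups. Of 210 values between gels, 198 counted as the same, 2 gained the threshold and 10 reversed. The 198 include the FPKM value of *Idi1* at 72 h, although its sign changed (0.23 in place of -0.04). With a threshold of 1 on the log2 fold change, 0 of the 7 genes and 0 of the 15 other enzymes were called in 1.0 mM gels, 1 and 0 in 1.5 mM gels, and 0 of the 7 over both gels. With replicate 1 of every group left out, 2 of the 7 and 4 of the 15 were called in 1.0 mM gels. Leaving out each library gave 2 to 7 of the 7 and 3 to 7 of the 15 in 1.0 mM gels, 4 to 7 and 2 to 10 in 1.5 mM gels, 7 to 7 of the 7 over both gels, and between gels 0 to 0 of the 7, with 0 to 0 of the 15 at 72 h and 0 to 1 at 96 h. Between gels at 96 h, DESeq2 called 1 of the 15 enzymes, and no low-count filter 1 of the 7 and 1 of the 15, with 1 of the 15 at 72 h as well.

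Between gels at 72 h, leaving out each library moved *Idi1* from -0.19 to 0.10 (above 0 without replicate 1 of the 1.0 mM gels, and 0.061 without replicate 2 of the 1.5 mM gels), *Lss* from -0.14 to 0.049 and *Fdft1* from -0.12 to 0.012 (both above 0 without replicate 1 of the 1.0 mM gels, and *Fdft1* 0.0021 without replicate 3 of the 1.5 mM gels). *Hmgcs1* fell below 0 without replicate 2 of the 1.0 mM gels (-0.042) or replicate 1 of the 1.5 mM gels (-0.061), with 0.11 as its highest value. At 96 h *Fdft1* ran from -0.13 to 0.039, above 0 without replicate 3 of the 1.5 mM gels. Without replicate 1 of every group, *Idi1* had 0.039 and *Lss* 0.036 at 72 h. With log2(FPKM + 1), 27 of 28 values kept their sign, and *Idi1* between gels at 72 h had 0.23 in place of -0.04. The causes were not tested.

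Replicate numbers were shared between groups, but nothing in the labels says that they mark a common culture or day. Of 18 pairs of same-numbered libraries, 13 had deviations from the group means that correlated above 0.1 (range 0.04 to 0.31). The 36 other pairs ran from -0.26 to 0.11. In 33 of 36 cases a library correlated best with its own number, a hint from the data and not the design. Deviations within a group sum to 0, so high values in same-numbered pairs force lower ones in the others. The other pairs are therefore no independent contrast, and the 36 cases take each pair of groups from both sides. With the replicate block, 1 of the 7 genes (*Idi1*) and 1 of the 15 enzymes were called between gels at 96 h.

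Counts over all genes moved by more than 1.5 times under some settings. In 1.0 mM gels 1457 genes were called, 678 with the fold threshold, 2283 without a filter, and 731 to 1680 with a library left out. In 1.5 mM gels 3033 were called, 498 with the fold threshold and 1181 to 4102 with a library left out. Over both gels 5092 were called and 763 with the fold threshold. Between gels, where edgeR called 0, the replicate block gave 43 genes at 72 h and 289 at 96 h, no filter 322 and 333, and DESeq2 12 and 96. Over both embedding times, 5 genes were called for gel concentration, 214 by DESeq2, 81 with the block, 512 without a filter, 1 with the fold threshold and 2 to 80 with a library left out. For the interaction, where edgeR called 0, these were 2 by DESeq2, 5 with the block and 238 without a filter. Leaving out replicate 1 of every group gave 773 genes in 1.0 mM gels, 4771 in 1.5 mM gels, 3007 over both gels and 282 between gels at 72 h.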

Other observations

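Among the genes whose log2 CPM was most like the mean of the 7 genes over the 12 libraries (among 11337 genes that averaged 100 counts or more) were *Pdia6*, a disulfide isomerase of the endoplasmic reticulum (Pearson r = 0.99), *Scd1* (0.99), *Dgkk* (0.99), *Pcyt1b* (0.98), *Celf2* (0.98), *Cds2* (0.98) and *Tuba1a* (0.97). These values describe 12 libraries in 2 sets by embedding time, which share library depth and composition. Within the 6 libraries of one embedding time, r for *Pdia6* was 0.93 at 72 h and 0.99 at 96 h, and that for *Scd1* 0.99 and 0.96. Of the synthesis enzymes outside the 7, *Fdps* ranked 10 of the 11337 genes, whereas *Ebp* ranked 4289. Likeness to the 7 chose these genes, so their differences between embedding times are given with no test. The log2 fold change of 72 h over 96 h was 0.22 ± 0.08 (SE) for *Pdia6* in 1.0 mM gels and 0.31 ± 0.08 in 1.5 mM gels. For *Pcyt1b* and *Cds2*, enzymes of phospholipid synthesis, it was 0.79 and 1.03, and 0.32 and 0.41, respectively.

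With each group's mean removed, the genes most like the 7 included *Pdia6* (r = 0.96), *Itga8* (0.96) and *Zfp217* (0.96). *Itga8*, an integrin subunit, was higher at 72 h by 0.95 ± 0.14 (SE) in 1.0 mM gels (edgeR, adjusted p = 0.0018) and by 1.01 ± 0.20 in 1.5 mM gels (edgeR, adjusted p = 0.0099).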
